A study of Danio rerio with 54 samples.

Results

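The 41 genes described here mark steps of neurogenesis in zebrafish larvae, from neural stem cells through committed progenitors to newborn neurons. They were chosen by gene symbol from a named list and fall into 3 classes: 17 stem cell genes, 12 proneural genes and 12 newborn neuron genes. All 41 symbols were found among the 30097 genes of the deposited expression table, and all 41 belonged to the 25387 expressed genes, which had at least 1 TPM (a length-corrected share of the transcripts of a library) in every sample of at least 1 group. The RNA came from whole larvae of the AB strain, and 18 groups of 3 samples were sequenced. The controls stayed at 28 °C and were collected at 96, 97, 98, 102, 108 and 132 h post-fertilisation (ctrl_96 hpf to ctrl_132 hpf). The lc groups spent 1, 2, 6, 12 or 24 h at 10 °C, a lethal cold stress that began at 96 hpf. The re groups spent 12 h at 10 °C and were then returned to 28 °C for 1, 2, 6, 12 or 24 h. In the paper's cold assays the medium took about 1 h to warm to 28 °C after transfer. The re_1 h larvae may therefore have only just reached that temperature. The er groups survived 24 h at 10 °C plus 24 h at 28 °C and were sorted by swimming and morphology into normal (er_nor) and abnormal (er_ab) larvae, and the abnormal ones had opaque brain regions. The labels name no deleted gene and no transgene. The number of larvae in a sample is not given in the sources used here, and dead larvae were removed during recovery.

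In the vertebrate nervous system, SoxB1, Zic and Pax6 transcription factors keep progenitors in an uncommitted state. Cells that commit to neurons express proneural factors such as those of the Neurog and Atoh1 families, which switch on Delta ligands; these ligands activate Notch receptors on neighbouring cells, where the Her (Hes) repressors hold neuronal differentiation back. SoxC factors, RNA-binding Elavl proteins and neuronal tubulins then mark the newborn neuron, and at this age zebrafish still add neurons in the brain and at the rim of the retina.

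TPM values are relative to the rest of a library, and every value below is in TPM per sample unless it is named as a log2 fold change, which is a difference of means of log2(TPM + 1). A gene was called when its fold change on that scale was at least 1.5 (0.585 in log2) and the limma adjusted p, over all 25387 expressed genes, was at most 0.05. Shares of all expressed genes are given for called genes only. Counts at an unadjusted p, or at an adjusted p without the fold threshold, cannot be set against them. Nothing in the labels says that the 3 samples of a group are separate clutches or cultures, and the p-values then reflect only how far these samples lie apart. Whole larvae were used, so fewer cells of a type and less RNA per cell cannot be told apart. No 2 libraries were identical, and the correlation of log2(TPM + 1) between libraries of a group was at least 0.972.

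At ctrl_96 hpf the newborn neuron class had the highest summed level, with levels of 1084 to 1127 TPM, against 349 to 364 TPM for the stem cell class and 270.2 to 278 TPM for the proneural class. The most abundant single gene was stmn1b, a neuronal microtubule regulator, at 299 ± 17.9 TPM (SD, n = 3). The least abundant was atoh1a, a factor of cerebellar and hair cell precursors, at 2.24 ± 0.399 TPM. Several members also act outside the brain, as pax6 and insm1 do in the endocrine pancreas and atoh1a in hair cells, and whole-larva RNA does not separate these sources.

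**Figure D1:**
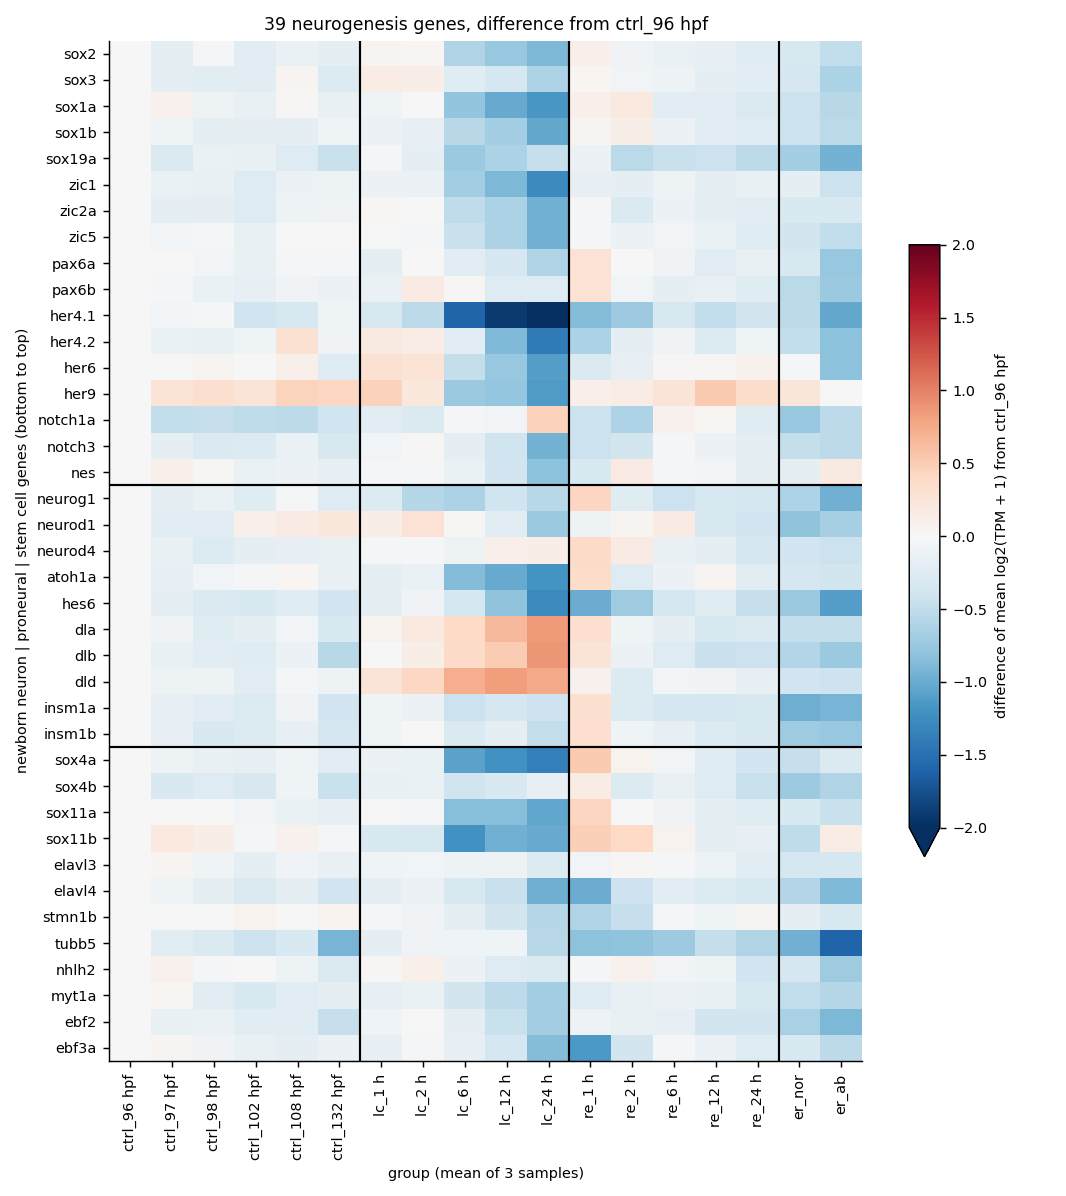
Difference of each gene's mean log2(TPM + 1) from ctrl_96 hpf, for 39 of the genes (rows, stem cell genes at the top, then proneural, then newborn neuron genes) in 18 groups of 3 samples (columns); blue is lower and red is higher, and values below -2 share the darkest blue. Most rows turn blue from lc_6 h to lc_24 h, dla, dlb and dld turn red, and most rows are pale again after rewarming.

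In untreated larvae 1 of the 41 genes passed both thresholds with age. None was called in ctrl_97, ctrl_98, ctrl_102 or ctrl_108 hpf against ctrl_96 hpf, where 0.240%, 0.205%, 1.37% and 2.50% of all expressed genes were called. At an unadjusted limma p under 0.05 the counts were 12, 16, 20 and 13 of 41. The share of all expressed genes at that looser threshold is not given here, so these counts cannot be set against the shares above. At ctrl_132 hpf 1 of 41 genes was called lower and none higher, against 8.28% and 4.13% of all expressed genes. This gene was tubb5, a beta-tubulin, which had 247, 230.5 and 231 TPM at ctrl_96 hpf and 123, 119 and 127 TPM at ctrl_132 hpf, a log2 fold change of -0.94 ± 0.06 (SE, adjusted p = 8.2e-16). Its 2 groups did not overlap, and its means at the ages between were 205, 194, 176 and 192 TPM.

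Smaller shifts with age had adjusted p-values under 0.05 but stayed below the fold threshold. By the limma adjusted p alone, 18 of 41 genes were lower and 2 higher at ctrl_132 hpf. The share of all expressed genes at that threshold, or without overlap between these ages, is not given here. The genes below therefore cannot be read as a shift beyond that of all expressed genes. The Delta ligand gene dlb had 14.8, 14.3 and 13.2 TPM at ctrl_96 hpf and 8.86, 9.02 and 9.97 TPM at ctrl_132 hpf, a log2 fold change of -0.55 ± 0.06 (SE, adjusted p = 5.87e-10). The values for sox4b, a SoxC factor, were 61.3, 56.9 and 65.2 TPM and 46.1, 43.5 and 44.1 TPM, with a log2 fold change of -0.45 ± 0.07 (SE, adjusted p = 2.92e-06). The gene ID used for her9 stood higher at ctrl_132 hpf, with 33.8, 27.4 and 27.4 TPM against 23.5, 21.4 and 20.6 TPM, and a log2 fold change of 0.42 ± 0.12 (SE, adjusted p = 0.00341). In each of these 3 genes the samples of the 2 ages did not overlap. The other gene higher with age by adjusted p was neurod1. It had 76.2, 74.6 and 72.4 TPM at ctrl_132 hpf against 68.1, 61.1 and 63.5 TPM, also without overlap (log2 fold change 0.21). Ebf2 had 6.65, 6.18 and 5.94 TPM at ctrl_96 hpf and 3.82, 4.75 and 4.26 TPM at ctrl_132 hpf. The values of elavl4 at these ages were 108, 111 and 103 TPM and 84.2, 78.7 and 83.4 TPM, and those of nhlh2 were 18.2, 18.2 and 18.5 TPM and 15.4, 13.9 and 15.01 TPM. These 3 newborn neuron genes were lower at the later age without overlap. The same held for the proneural genes insm1a (39.5, 38.2 and 39.7 TPM and then 32.9, 26.8 and 30.3 TPM), insm1b (17.8, 18.2 and 18.7 TPM and then 15.06, 13.8 and 13.7 TPM) and dla (15.8, 14.8 and 14.5 TPM and then 11.7, 11.7 and 12.5 TPM). Among the stem cell genes, sox3 had 29.4, 26.6 and 26.7 TPM and 23.5, 21.0 and 23.0 TPM, notch3 had 29.3, 28.4 and 29.3 TPM and 23.9, 23.6 and 21.5 TPM, sox2 had 41.3, 39.2 and 41.8 TPM and 37.1, 36.7 and 34.3 TPM, and sox19a had 28.6, 29.5 and 22.0 TPM and 20.4, 17.5 and 19.7 TPM, each lower at the later age without overlap. The median log2 fold change was -0.17 over the 41 genes and -0.09 over all expressed genes. Of 22 proliferation markers in a separate list, 19 were called lower over the same interval and none higher, with summed levels of 937 to 1015 TPM at ctrl_96 hpf and 459 to 505 TPM at ctrl_132 hpf.

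Cold exposure lowered many of the 41 genes, and the number rose with time at 10 °C. Against ctrl_96 hpf, none was called at lc_1 h by limma (10 at an unadjusted p under 0.05), where 0.284% of all expressed genes were, and 1 was lower at lc_2 h. At lc_6 h 13 were lower and 1 was higher, at lc_12 h 18 were lower and 2 were higher, and at lc_24 h 26 were lower and 3 were higher. The shares of all expressed genes called lower were 0.0945%, 2.19%, 9.54% and 24.3% from lc_2 h to lc_24 h, and the shares called higher were 0.654%, 2.65%, 5.56% and 9.30%. At lc_24 h the members called lower were 14 of 17 in the stem cell class, 5 of 12 in the proneural class and 7 of 12 in the newborn neuron class, and the 3 called higher were all proneural. The median log2 fold change at lc_24 h was -0.96, -0.52 and -0.69 in the 3 classes, against -0.23 over all expressed genes. When libraries were scaled by the median of ratios, which brings the all-gene median close to 0, 21 of 41 genes were lower and the same 3 were higher, with sox3, pax6a, neurod1, myt1a and ebf2 no longer called.

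Among the stem cell genes, 4 of the 5 SoxB1 factors were called lower at lc_24 h, to different depths. The pan-progenitor gene sox2 had 41.3, 39.2 and 41.8 TPM at ctrl_96 hpf, 26.4, 27.1 and 26.3 TPM at lc_6 h and 20.9, 21.2 and 22.2 TPM at lc_24 h. Its lc_24 h samples lay below all ctrl_96 hpf samples, and the log2 fold change was -0.90 ± 0.06 (SE, adjusted p = 7.88e-17). The paralogs sox1a and sox1b had log2 fold changes of -1.17 ± 0.12 (SE, adjusted p = 2.76e-11) and -1.03 ± 0.10 (SE, adjusted p = 3.57e-11) at lc_24 h. Sox3 was lower by less, -0.62 ± 0.07 (SE, adjusted p = 1.54e-09), and this call was lost without ctrl_96hpf replicate 1 (-0.57) or lc_24h replicate 1 (-0.56). Sox19a was lowest at lc_6 h, with 15.7, 14.2 and 16.5 TPM against 28.6, 29.5 and 22.0 TPM, and its lc_24 h value of 19.1 ± 2.41 TPM was not called (log2 fold change -0.46 ± 0.12 SE, adjusted p = 0.00129).

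The zinc finger genes zic1, zic2a and zic5, which act in progenitors of the dorsal neural tube, changed at a similar pace. Zic1 had 24.6, 27.4 and 24.7 TPM at ctrl_96 hpf, 13.9, 13.7 and 12.1 TPM at lc_12 h and 10.2, 10.3 and 9.45 TPM at lc_24 h, with a log2 fold change of -1.27 ± 0.07 (SE, adjusted p = 5.94e-19) at lc_24 h. Zic2a had 25.2, 23.1 and 23.2 TPM at the start and 11.8, 12.2 and 11.2 TPM at lc_24 h, a log2 fold change of -0.96 ± 0.06 (SE, adjusted p = 1.18e-17). Zic5, which lies next to zic2a in the RefSeq gene order, had a log2 fold change of -0.96 ± 0.08 (SE, adjusted p = 5.1e-13). In all 3 genes the lc_24 h samples were below every ctrl_96 hpf sample. Nes, the progenitor intermediate filament nestin, was slower: 3.65, 3.40 and 3.10 TPM at ctrl_96 hpf, 2.35, 2.38 and 2.30 TPM at lc_12 h and 1.28, 1.69 and 1.45 TPM at lc_24 h, with calls only at lc_24 h (log2 fold change -0.83 ± 0.06 SE, adjusted p = 2.3e-14).

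The paired-box genes pax6a and pax6b, which pattern the eye and forebrain, moved less than the zic genes. Pax6a had 47.5 ± 0.883 TPM at ctrl_96 hpf and 31.1 ± 2.43 TPM at lc_24 h (log2 fold change -0.60 ± 0.13 SE, adjusted p = 9.73e-05), and the call was lost without lc_24h replicate 2 (-0.54). For pax6b the means were 16.2 ± 1.23 and 13.5 ± 1.44 TPM, with a log2 fold change of -0.25 ± 0.09 (SE, adjusted p = 0.0144) that was not called.

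Among the 41 genes, the 3 Delta ligand genes rose in the cold while the Her repressor genes fell. Notch activity itself was not measured. Dla had 15.8, 14.8 and 14.5 TPM at ctrl_96 hpf, 24.1, 23.7 and 24.5 TPM at lc_12 h and 28.3, 27.5 and 28.1 TPM at lc_24 h. Dlb had 14.8, 14.3 and 13.2 TPM at ctrl_96 hpf and 26.8, 26.1 and 27.0 TPM at lc_24 h. Dld was the earliest, with 6.62, 6.47 and 6.67 TPM at ctrl_96 hpf, 9.46, 8.23 and 9.87 TPM at lc_2 h, 11.9, 11.9 and 11.0 TPM at lc_6 h and 11.4, 11.4 and 12.7 TPM at lc_24 h. In these 3 ligand genes every lc_24 h sample was above every sample of the 6 control groups. The log2 fold changes at lc_24 h were 0.85 ± 0.06 (SE, adjusted p = 5.67e-16) for dla, 0.88 ± 0.06 (SE, adjusted p = 6.66e-16) for dlb and 0.76 ± 0.06 (SE, adjusted p = 3.45e-13) for dld, and they were the only 3 of the 41 genes called higher at any time in the cold.

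Among the repressors, her4.1, a Notch-dependent gene of radial glia and progenitors, showed the largest log2 fold change of the 41 genes at lc_24 h. It had 11.5, 11.4 and 10.9 TPM at ctrl_96 hpf, 3.64, 3.59 and 2.09 TPM at lc_6 h and 0.750, 1.34 and 2.17 TPM at lc_24 h, a log2 fold change of -2.38 ± 0.19 (SE, adjusted p = 3.18e-14). Its tandem neighbour her4.2 went from 17.9, 17.9 and 17.8 TPM to 5.83, 6.83 and 5.91 TPM, a log2 fold change of -1.39 ± 0.09 (SE, adjusted p = 1.22e-16). The ratio of her4.1 to her4.2 was 0.616 to 0.642 in the ctrl_96 hpf samples and 0.129 to 0.367 in the lc_24 h samples. Copies of the her4 cluster are close to each other in sequence, and reads could have been divided between them, so the split of the 2 genes is uncertain.

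The Hes1-type genes her6 and her9 also fell. Her6 had 15.9, 15.09 and 22.7 TPM at ctrl_96 hpf and 9.64, 5.93 and 7.75 TPM at lc_24 h (log2 fold change -1.105 ± 0.17 SE, adjusted p = 4.19e-07), and her9 had 23.5, 21.4 and 20.6 TPM and 10.1, 8.43 and 9.74 TPM (log2 fold change -1.13 ± 0.12 SE, adjusted p = 4.32e-11). Hes6, which in mouse counteracts Hes1 and promotes differentiation, went from 56.4, 60.8 and 58.9 TPM to 20.8, 25.3 and 25.3 TPM (log2 fold change -1.27 ± 0.10 SE, adjusted p = 1e-14). In each of these genes the samples of the 2 groups did not overlap. The summed level of dla, dlb and dld was 34.4 to 37.2 TPM at ctrl_96 hpf and 65.1 to 67.8 TPM at lc_24 h, while that of her4.1, her4.2, her6 and her9 was 65.7 to 71.9 and 22.5 to 26.4 TPM. The ratio of the first sum to the second, a description without a test, was 0.478 to 0.541 at the start, 1.14 to 1.22 at lc_6 h, 1.64 to 1.78 at lc_12 h and 2.52 to 2.89 at lc_24 h, and in the 6 control groups it lay between 0.362 and 0.542.

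The receptor genes differed. Notch3 had 29.3, 28.4 and 29.3 TPM at ctrl_96 hpf, 22.2, 21.0 and 21.7 TPM at lc_12 h and 14.7, 14.6 and 14.3 TPM at lc_24 h, and it was called at lc_24 h only (log2 fold change -0.95 ± 0.08 SE, adjusted p = 1.03e-12). Notch1a scattered within groups. It had 12.6, 26.9 and 12.1 TPM at ctrl_96 hpf, 9.67, 10.5 and 24.1 TPM at lc_1 h, 11.6, 29.2 and 11.4 TPM at lc_6 h and 10.0, 24.3 and 9.85 TPM at re_24 h, so in each of these groups 1 sample lay far above the other two. At lc_24 h all samples were high, with 21.4, 20.0 and 26.6 TPM, and they overlapped only with the highest ctrl_96 hpf sample (log2 fold change 0.46 ± 0.33 SE, adjusted p = 0.222, not called).

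**Figure D2:**
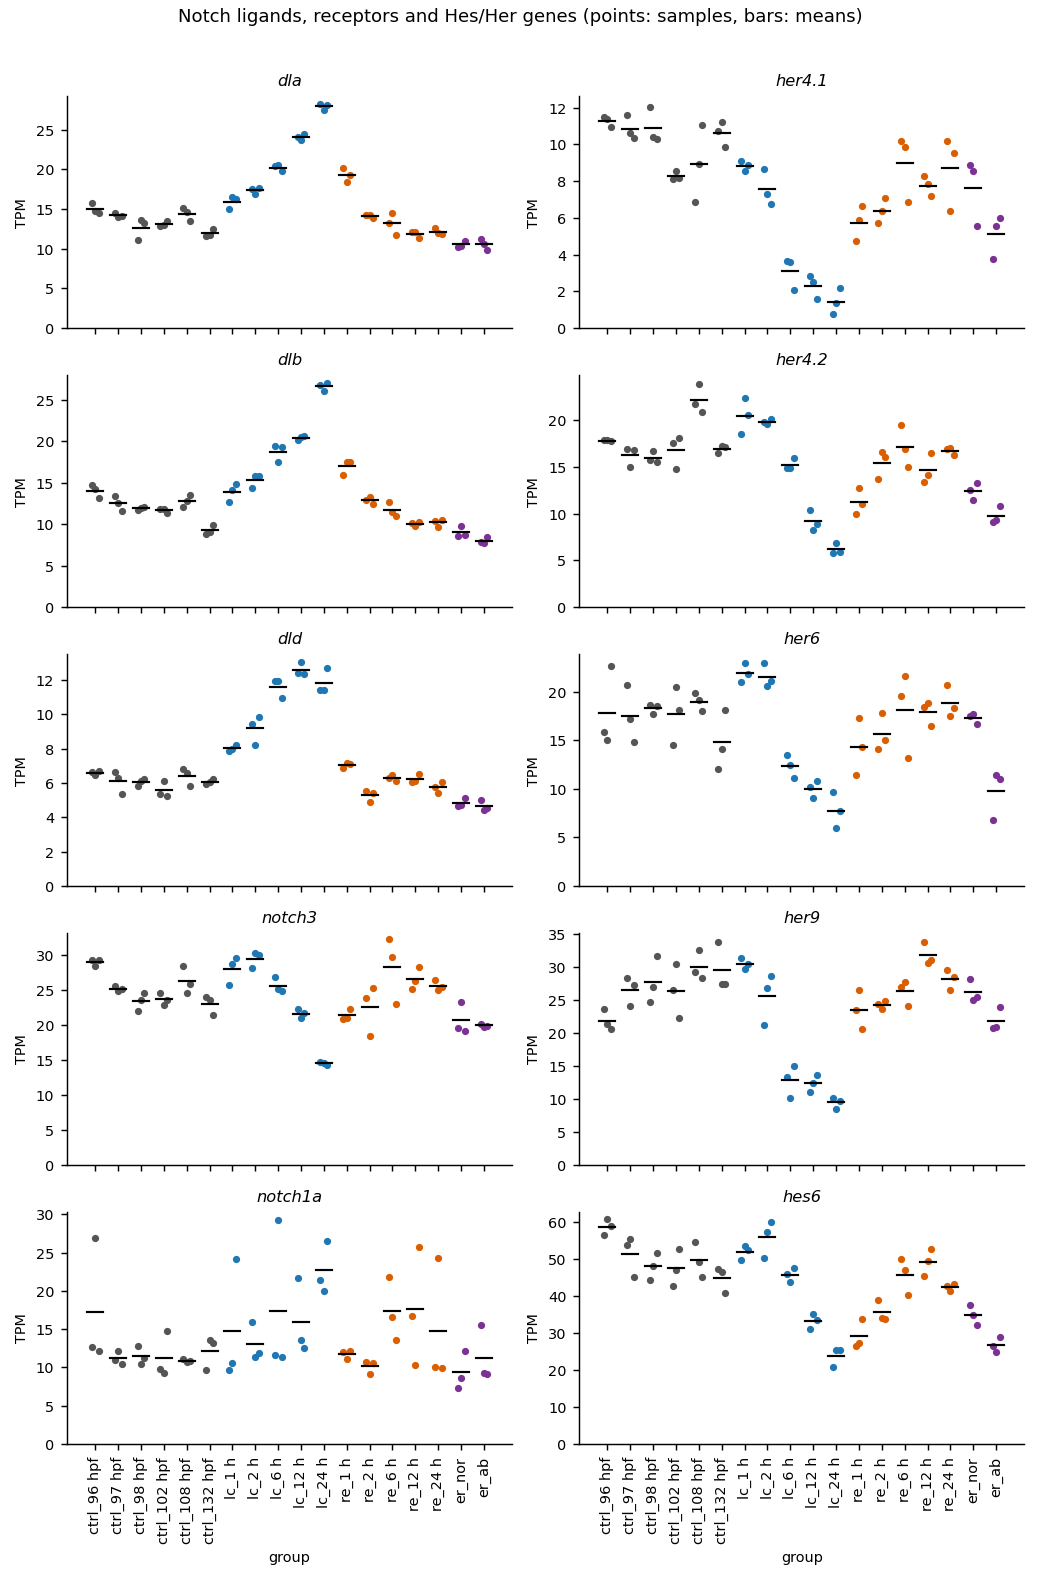
TPM of Notch ligands and receptors (left) and Hes/Her genes (right) in each sample (points) of the 18 groups, with group means as bars; grey is ctrl, blue lc, orange re and purple er. The ligands dla, dlb and dld climb in the cold while her4.1, her4.2, her6, her9 and hes6 drop, and notch1a shows 1 high sample in ctrl_96 hpf, lc_1 h, lc_6 h and re_24 h.

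Among the proneural factors, atoh1a fell from lc_6 h on. Atoh1a went from 2.43, 2.52 and 1.79 TPM to 0.277, 0.351 and 0.596 TPM at lc_24 h (log2 fold change -1.20 ± 0.15 SE, adjusted p = 4.62e-09), groups that did not overlap.

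Neurod1, which drives terminal differentiation, had 68.1, 61.1 and 63.5 TPM at ctrl_96 hpf, 66.5, 65.5 and 64.3 TPM at lc_6 h and 38.1, 36.0 and 40.2 TPM at lc_24 h, with a call only at lc_24 h (log2 fold change -0.74 ± 0.06 SE, adjusted p = 1.82e-13). Neurog1, a determination factor of sensory neurons, was called at lc_6 h only (-0.64 ± 0.13 SE, adjusted p = 0.000376), and this call was lost without lc_6h replicate 2 (-0.53) and with median of ratios scaling (-0.56). Neurod4 and the zinc finger genes insm1a and insm1b were called at no time in the cold, with log2 fold changes at lc_24 h of 0.14 ± 0.12 (SE, adjusted p = 0.314), -0.42 ± 0.07 (SE, adjusted p = 1.8e-06) and -0.48 ± 0.08 (SE, adjusted p = 1.89e-06).

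In the newborn neuron class the SoxC factors, which drive the neuronal program in newly born cells, separated by paralog. Sox4a had 115, 111 and 111 TPM at ctrl_96 hpf, 53.0, 53.8 and 52.7 TPM at lc_6 h and 44.1, 40.1 and 43.9 TPM at lc_24 h, a log2 fold change of -1.38 ± 0.05 (SE, adjusted p = 2.29e-24), the smallest adjusted p of the 41 genes in this comparison. Sox4b had 61.3, 56.9 and 65.2 TPM and 52.8, 54.1 and 56.5 TPM at the same 2 ends, and its log2 fold change of -0.16 ± 0.07 (SE, adjusted p = 0.0493) was not called. The ratio of sox4a to sox4b was 1.70 to 1.95 in the ctrl_96 hpf samples, 0.925 to 0.996 at lc_12 h and 0.742 to 0.834 at lc_24 h, so the samples of these 3 groups did not overlap. Sox11a and sox11b both fell: sox11a had 57.0, 56.7 and 56.8 TPM and 26.8, 27.2 and 27.2 TPM (log2 fold change -1.04 ± 0.05 SE, adjusted p = 2.91e-20), and sox11b had a log2 fold change of -1.01 ± 0.18 (SE, adjusted p = 4.37e-06).

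Of the other newborn neuron genes, 4 were called lower at lc_24 h: elavl4, ebf3a, ebf2 and myt1a. Elavl4, an RNA-binding protein of postmitotic neurons, had 108, 111 and 103 TPM at ctrl_96 hpf, 75.3, 83.8 and 77.1 TPM at lc_12 h and 59.6, 50.6 and 52.3 TPM at lc_24 h (log2 fold change -0.98 ± 0.07 SE, adjusted p = 1.13e-14). Its relative elavl3 had 102 ± 6.32 TPM and 84.5 ± 5.92 TPM and was not called (log2 fold change -0.27 ± 0.07 SE, adjusted p = 0.00138). Ebf3a, a factor of migrating young neurons, had 52.4, 58.4 and 54.1 TPM at ctrl_96 hpf and 29.6, 28.9 and 30.1 TPM at lc_24 h, groups that did not overlap (log2 fold change -0.88 ± 0.08 SE, adjusted p = 2.66e-12). Ebf2 and myt1a were called lower at lc_24 h, with log2 fold changes of -0.70 ± 0.09 (SE, adjusted p = 5.35e-09) and -0.69 ± 0.13 (SE, adjusted p = 1.15e-05), and nhlh2 was not (-0.29 ± 0.07 SE, adjusted p = 0.000186). Stmn1b had 291, 319.7 and 287 TPM at ctrl_96 hpf, 212, 235 and 247 TPM at lc_12 h and 203, 207 and 193 TPM at lc_24 h, and tubb5 had 247, 230.5 and 231, 220.1, 225 and 222 and 157, 163 and 161 TPM at these times. Their lc_24 h samples lay below all ctrl_96 hpf samples, but the log2 fold changes of -0.57 ± 0.05 (SE, adjusted p = 1.9e-13) and -0.56 ± 0.06 (SE, adjusted p = 4.78e-10) did not reach the fold threshold.

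Against untreated larvae of the same age, the 41 genes again moved mostly downward from lc_6 h on. At lc_6 h against ctrl_102 hpf 10 of 41 genes were lower and 2 higher, where 3.68% and 3.32% of all expressed genes were called. At lc_12 h against ctrl_108 hpf 14 were lower and 3 higher, where 14.1% and 5.77% were called. At lc_1 h against ctrl_97 hpf and at lc_2 h against ctrl_98 hpf none was called, where 0.571% and 1.14% of expressed genes were (11 and 18 of the 41 genes had an unadjusted p under 0.05). For the gene ID used for her9, whose controls drifted upward with age, the log2 fold change at lc_12 h was -0.78 ± 0.12 (SE, adjusted p = 5.46e-07) against ctrl_96 hpf and -1.22 ± 0.12 (SE, adjusted p = 1.42e-11) against ctrl_108 hpf. A second ID of her9 did not drift upward, and it was not called against ctrl_108 hpf (-0.97, adjusted p = 0.0988). For tubb5, whose controls drifted downward, the lc_12 h samples had 220.1, 225 and 222 TPM and the ctrl_108 hpf samples 199, 193 and 183 TPM, which did not overlap, with a log2 fold change of 0.22 ± 0.06 (SE, adjusted p = 0.00372). The all-gene median log2 fold change was -0.13 at lc_12 h against ctrl_96 hpf and -0.16 against ctrl_108 hpf, and median of ratios scaling gave 14 lower and 3 higher in the first and 11 lower and 3 higher in the second. No untreated group aged 120 hpf was analysed here, so lc_24 h has no control of its own age. In untreated larvae against ctrl_96 hpf, none of the 41 genes was called at ctrl_108 hpf and 1, tubb5, at ctrl_132 hpf. The part of age in the lc_24 h differences was not tested.

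Genes of 4 related lists outside the 41 were also measured at lc_24 h, where 24.3% of all expressed genes were called lower and 9.30% higher. Of 27 other Notch pathway genes 10 were lower and none higher, of 29 other progenitor genes 14 were lower and 1 higher, of 27 other proneural and neurogenic genes 17 were lower and none higher, and of 24 other immature neuron genes 7 were lower and none higher, the last a share near that of all expressed genes. Their median log2 fold changes were -0.41, -0.57, -0.70 and -0.27, against -0.23 over all expressed genes. The Hes-type repressor her8a went from 12.5 ± 2.15 to 0.849 ± 0.380 TPM (log2 fold change -2.88 ± 0.14 SE, adjusted p = 2.7e-20), and the ubiquitin ligase gene mib1, needed in cells that send the Delta signal, went from 26.4 ± 1.32 to 13.0 ± 0.920 TPM (log2 fold change -0.97 ± 0.07 SE, adjusted p = 7.26e-15). The retinal factor bhlhe22 went from 30.9 ± 0.800 to 7.30 ± 1.01 TPM (log2 fold change -1.95 ± 0.08 SE, adjusted p = 1.8e-22). The retinal homeobox gene rx1 went the other way, from 11.2 ± 0.697 to 28.3 ± 2.28 TPM (log2 fold change 1.26 ± 0.08 SE, adjusted p = 1.67e-16). Of 30 mature neuron markers 11 were lower, with summed levels of 2262 to 2441 TPM at ctrl_96 hpf and 1837 to 1981 TPM at lc_24 h, and of 22 proliferation markers 8 were lower and 2 higher. Their part in the results for the 41 genes was not tested.

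Return to 28 °C raised many of the 41 genes within 1 h. At re_1 h against lc_12 h 17 of 41 genes were higher and 3 lower, where 12.3% and 4.55% of all expressed genes were called. The later groups gave similar counts: 14 higher and 4 lower at re_2 h, 13 and 4 at re_6 h, 13 and 3 at re_12 h, and 12 and 3 at re_24 h. All expressed genes were called higher in 14.1%, 16.6%, 15.8% and 13.0% and lower in 6.55%, 5.24%, 5.50% and 7.15% of cases in the same order. The 5 comparisons share the lc_12 h samples. With median of ratios scaling the counts were 13 higher and 4 lower at re_1 h and 7 higher and 4 lower at re_12 h. The all-gene median log2 fold change was 0.18 at re_6 h and 0.19 at re_12 h, and within 0.1 of 0 at the other 3 times.

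The smallest adjusted p of the 41 genes on rewarming was that of sox4a, which had 45.8, 49.2 and 49.3 TPM at lc_12 h and 157, 168 and 163 TPM at re_1 h, a log2 fold change of 1.74 ± 0.05 (SE, adjusted p = 5.89e-27). Sox11a had 30.1, 33.0 and 30.1 TPM and 75.5, 78.6 and 76.5 TPM (log2 fold change 1.28 ± 0.05 SE, adjusted p = 1.59e-22), and sox11b had 2.33, 1.81 and 2.92 TPM and 7.02, 9.81 and 7.54 TPM (1.44 ± 0.18 SE, adjusted p = 8.08e-09). In these 3 genes each re_1 h sample exceeded all lc_12 h samples. The same held for sox4b, which was not called, with 49.5, 49.4 and 49.6 TPM at lc_12 h and 67.2, 65.8 and 71.3 TPM at re_1 h. Atoh1a, below 1 TPM in all lc_12 h samples, had 3.07, 3.38 and 3.03 TPM at re_1 h (1.37 ± 0.15 SE, adjusted p = 4.91e-10).

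Among the stem cell genes, sox2 had 23.7, 22.7 and 24.4 TPM at lc_12 h and 43.8, 45.2 and 42.2 TPM at re_1 h (log2 fold change 0.86 ± 0.06 SE, adjusted p = 8.16e-16), and sox1a had 4.47, 5.12 and 3.67 TPM and 11.1, 11.6 and 9.39 TPM (1.11 ± 0.12 SE, adjusted p = 2.17e-10). Zic1 had 13.9, 13.7 and 12.1 TPM and 22.9, 22.5 and 22.6 TPM, with a log2 fold change of 0.74 ± 0.07 (SE, adjusted p = 1.19e-11). The groups of these 3 genes did not overlap. Zic2a (0.60 ± 0.06 SE, adjusted p = 2.22e-11), zic5 (0.60 ± 0.08 SE, adjusted p = 9.2e-08) and pax6a (0.61 ± 0.13 SE, adjusted p = 0.000141) were called close to the fold threshold, and the calls were lost without lc_12h replicate 3 (0.53) or re_1h replicate 2 (0.58) for zic2a, without lc_12h replicate 1 (0.56), lc_12h replicate 2 (0.58) or re_1h replicate 3 (0.58) for zic5, and without lc_12h replicate 1 for pax6a (0.52). With median of ratios scaling none of the 3 was called (0.51, 0.53 and 0.52). Insm1a had 29.6, 32.1 and 30.5 TPM at lc_12 h and 48.1, 47.7 and 51.1 TPM at re_1 h (0.66 ± 0.07 SE, adjusted p = 2.78e-10), a call that was also lost with that scaling (0.57).

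Several genes stood above their starting level at re_1 h, but none of the 41 passed the fold threshold upward against ctrl_96 hpf, a comparison added after the values were seen, in which 8.39% of all expressed genes were called higher. For 12 of the 41 genes, 8 of them proneural, the adjusted p was at most 0.05 in the upward direction. The share of all expressed genes at this threshold alone is not given here. Sox4a had 157, 168 and 163 TPM against 115, 111 and 111 TPM (log2 fold change 0.53 ± 0.05 SE, adjusted p = 2.37e-11) and sox11a 75.5, 78.6 and 76.5 TPM against 57.0, 56.7 and 56.8 TPM (0.43 ± 0.05 SE, adjusted p = 5.56e-09), without overlap between groups. Neurog1 had 9.21, 7.36 and 7.11 TPM against 5.12, 5.94 and 5.70 TPM, a log2 fold change of 0.43 ± 0.13 (SE, adjusted p = 0.00788), and by re_2 h it had 5.17, 4.36 and 4.28 TPM. Sox4a had 122, 112 and 122 TPM at re_2 h, where it overlapped with the ctrl_96 hpf samples.

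**Figure D3:**
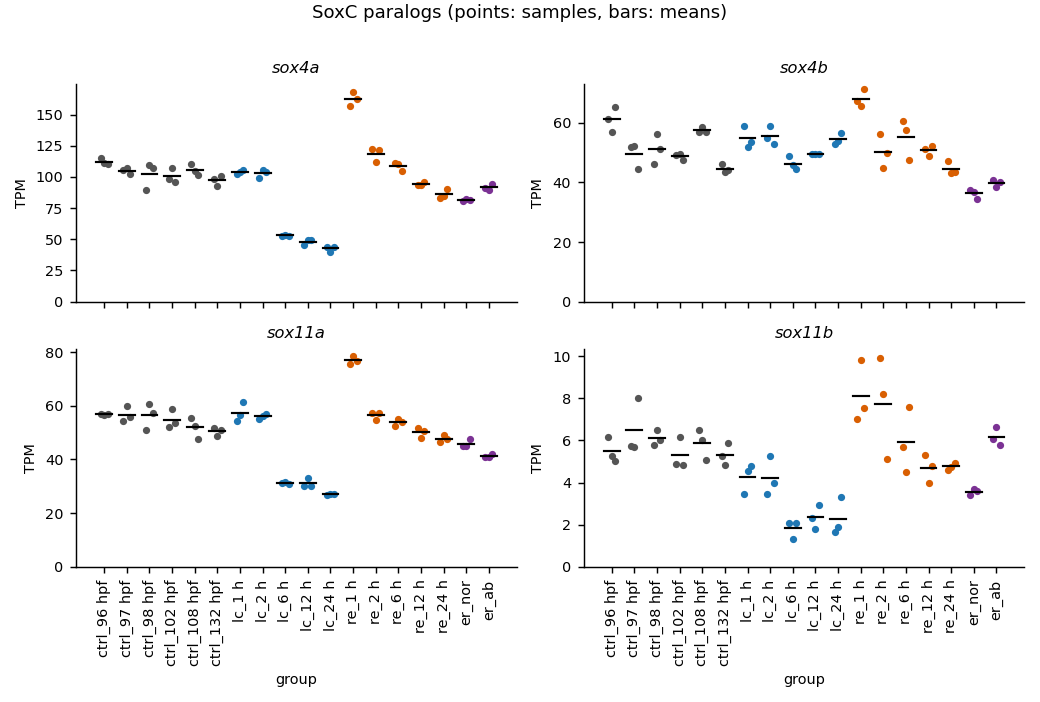
TPM of sox4a, sox4b, sox11a and sox11b in each sample (points) of the 18 groups, with group means as bars; grey is ctrl, blue lc, orange re and purple er. Sox4a falls in the cold and peaks at re_1 h with a mean of 163 TPM. Sox4b ranges between means of 36.3 and 68.1 TPM, and its highest mean is also at re_1 h.

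Notch ligand genes and Her genes moved in opposite directions on rewarming. Dld had 12.4, 13.1 and 12.3 TPM at lc_12 h and 6.89, 7.19 and 7.09 TPM at re_1 h, a log2 fold change of -0.76 ± 0.06 (SE, adjusted p = 8.7e-13), and dla and dlb were called lower from re_2 h on, with log2 fold changes at re_2 h of -0.73 ± 0.06 (SE, adjusted p = 1.28e-13) and -0.63 ± 0.06 (SE, adjusted p = 1.86e-11). Her4.1 had 2.81, 2.51 and 1.60 TPM at lc_12 h, 4.71, 5.86 and 6.62 TPM at re_1 h and 10.2, 6.34 and 9.52 TPM at re_24 h, with a log2 fold change of 1.03 ± 0.19 (SE, adjusted p = 1.41e-05) at re_1 h. Her9 had 11.1, 12.3 and 13.6 TPM and 23.5, 26.4 and 20.5 TPM (0.87 ± 0.12 SE, adjusted p = 4.13e-08). The gene IDs used for her4.2 and her6 were called higher from re_2 h on, with log2 fold changes at re_2 h of 0.69 ± 0.09 (SE, adjusted p = 2.81e-08) and 0.59 ± 0.17 (SE, adjusted p = 0.0035). This delay depended on the ID. A second ID of each gene was already called higher at re_1 h, with 0.71 (adjusted p = 0.000249) for her4.2 and 0.62 (adjusted p = 4.11e-05) for her6. The her4.2 call at re_12 h was lost without lc_12h replicate 2 (0.56) or re_12h replicate 3 (0.54). The her6 call at re_2 h was lost without lc_12h replicate 2 (0.53) or re_2h replicate 2 (0.50), and these 2 genes depended on scaling. With the median of ratios, her4.2 was not called at re_2 h (0.58) or re_12 h (0.42), and her6 was not called at re_2 h (0.48), re_6 h (0.57) or re_12 h (0.58). Hes6 had 26.5, 27.4 and 33.9 TPM at re_1 h and was called at none of the 5 rewarming times. The ratio of the ligand sum to the Her sum was 0.692 to 0.866 at re_1 h, 0.505 to 0.565 at re_2 h and 0.372 to 0.402 at re_24 h.

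A few newborn neuron genes went down rather than up in the first hour of rewarming. Ebf3a had 39.5, 48.3 and 41.6 TPM at lc_12 h, 23.7, 23.6 and 25.2 TPM at re_1 h and 45.5, 37.5 and 43.9 TPM at re_2 h. The log2 fold change was -0.80 ± 0.08 (SE, adjusted p = 5.59e-11) at re_1 h and 0.78 ± 0.08 (SE, adjusted p = 6.24e-10) from re_1 h to re_2 h. The re_1 h samples were the lowest of all 54 samples for the gene ID used. A second ID of ebf3a did not return, with means of 14.7 TPM at lc_12 h, 9.09 TPM at re_1 h and 7.57 TPM at re_2 h. From re_1 h to re_2 h, a comparison added after the values were seen, ebf3a was the only gene of the 41 called higher, and neurog1 and atoh1a were called lower (-0.66 and -0.62), where 3.38% and 3.02% of all expressed genes were called. The neurog1 call was lost without re_1h replicate 1 (-0.56), the atoh1a call without re_2h replicate 3 (-0.53), and the ebf3a call with IDs summed (0.56). Tubb5 had 220.1, 225 and 222 TPM at lc_12 h and 126, 137 and 139 TPM at re_1 h (-0.73 ± 0.06 SE, adjusted p = 9.32e-13), and it had 156, 148 and 159 TPM at re_24 h. Elavl4 had 75.3, 83.8 and 77.1 TPM and 54.6, 52.5 and 53.4 TPM, without overlap, and its log2 fold change of -0.55 ± 0.07 (SE, adjusted p = 6.25e-08) fell short of the fold threshold. Against ctrl_96 hpf, 7 of 41 genes were lower at re_1 h, where 7.85% of all expressed genes were: her4.1, her4.2, hes6, elavl4, stmn1b, tubb5 and ebf3a. Of these, her4.2 (-0.63 ± 0.09 SE, adjusted p = 2.6e-07; -0.55 without re_1h replicate 1) and stmn1b (-0.60 ± 0.05 SE, adjusted p = 9.89e-14; -0.56 without ctrl_96hpf replicate 2 and -0.58 without re_1h replicate 3) lost their call when 1 library was left out. With median of ratios scaling 5 genes were lower and 1 was higher, namely sox4a.

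**Figure D4:**
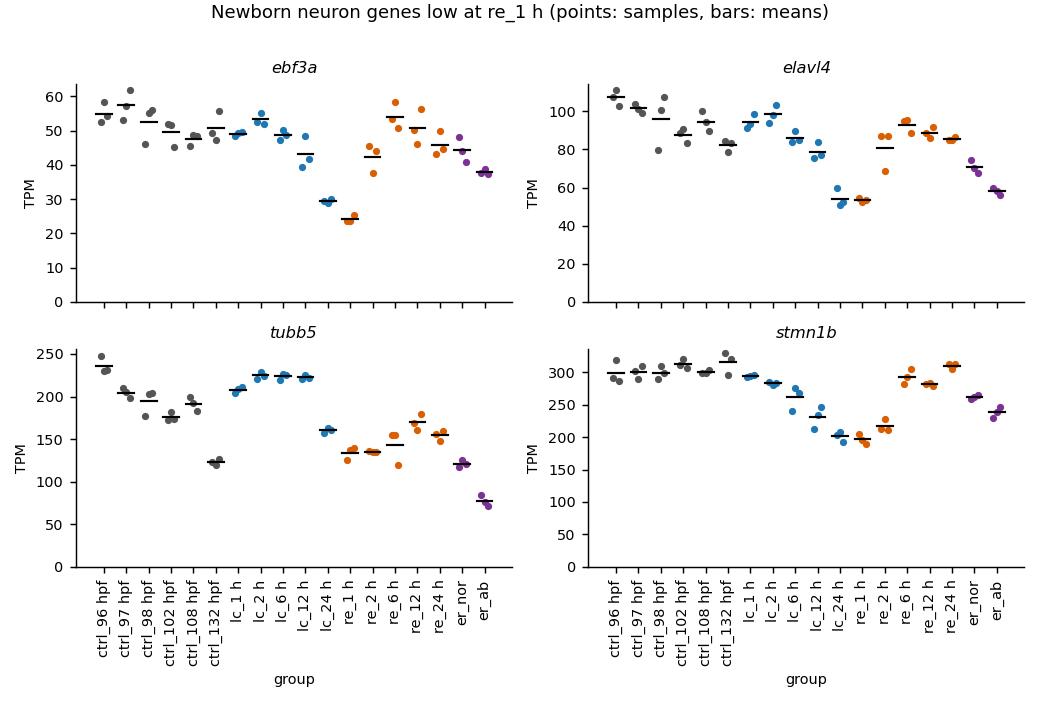
TPM of ebf3a, elavl4, tubb5 and stmn1b in each sample (points) of the 18 groups, with group means as bars; grey is ctrl, blue lc, orange re and purple er. The ID used for ebf3a has its lowest mean, 24.2 TPM, at re_1 h and is back at 42.3 TPM at re_2 h, while tubb5 is lowest in er_ab at 77.5 TPM.

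After 24 h of rewarming few of the 41 genes passed both thresholds against untreated larvae of the same age, a count near the background. Their median log2 fold change was -0.07, against 0.05 over all expressed genes. At re_24 h against ctrl_132 hpf 1 of 41 genes was lower and none higher, where 1.34% and 4.75% of all expressed genes were called, and the log2 fold changes of the 41 genes ran from -0.59 (neurod1) to 0.34 (her6). Neurod1 had 45.8, 49.1 and 52.4 TPM at re_24 h and 76.2, 74.6 and 72.4 TPM at ctrl_132 hpf, 2 groups that did not overlap, with a log2 fold change of -0.59 ± 0.06 (SE, adjusted p = 3.86e-10). This call was lost without ctrl_132hpf replicate 1 (-0.57) or re_24h replicate 1 (-0.54). Of the 22 proliferation markers 13 were higher and none lower in this comparison, with summed levels of 802 to 917 TPM at re_24 h. At re_12 h, 120 hpf old, none of the 41 genes was called by limma against ctrl_96 hpf (23 had an unadjusted p under 0.05), where 3.12% of all expressed genes were, and this comparison was added after the values were seen. By the limma adjusted p alone, 15 of the 41 genes were lower and 1 higher. The share of all expressed genes at that threshold is not given here. The median log2 fold change was -0.19 over the 41 genes and 0.04 over all expressed genes.

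Larvae that had spent 24 h in the cold and 24 h at 28 °C were compared by outcome. Against lc_24 h, 15 of 41 genes were higher and 4 lower in er_nor, where 25.9% and 8.61% of all expressed genes were called, and 11 were higher and 5 lower in er_ab, where 27.3% and 10.7% were. Both comparisons share the lc_24 h samples. The lc_24 h larvae were 120 hpf old and not sorted by outcome, while the er larvae were survivors aged 144 hpf. Recovery, age and the selection of survivors cannot be told apart here. The split depended on scaling: with the median of ratios it was 8 higher and 8 lower in er_nor and 7 higher and 12 lower in er_ab, and the all-gene medians of 0.24 and 0.21 moved close to 0. Zic1, her4.1, her9 and sox4a were among the genes higher in both, with log2 fold changes of 1.097, 1.86, 1.38 and 0.92 in er_nor and 0.84, 1.36, 1.13 and 1.09 in er_ab. Dla, dlb and dld were lower in both, with -1.33, -1.47 and -1.14 in er_nor and -1.32, -1.62 and -1.18 in er_ab.

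Few of the 41 genes passed both thresholds between abnormal and normal survivors. By the limma adjusted p alone, 18 were lower and 3 higher in er_ab. The matching share of all expressed genes is not given here. In er_ab against er_nor 3 genes were lower and 1 was higher, where 4.74% and 5.58% of all expressed genes were called, so the counts were near the background. Her6 had 17.5, 17.7 and 16.7 TPM in er_nor and 6.78, 11.4 and 11.0 TPM in er_ab, a log2 fold change of -0.80 ± 0.17 (SE, adjusted p = 0.000217). Tubb5 had 117, 125 and 121 TPM and 84.5, 76.2 and 71.8 TPM (-0.64 ± 0.06 SE, adjusted p = 6.51e-11). Sox11b went the other way, with 3.41, 3.70 and 3.58 TPM in er_nor and 6.05, 6.62 and 5.78 TPM in er_ab (0.65 ± 0.18 SE, adjusted p = 0.00367). In these 3 genes the samples of the 2 groups did not overlap.

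These calls were not equally firm. The her6 call was lost without er_ab replicate 1 (-0.58) and the tubb5 call without er_ab replicate 3 (-0.58). A second gene ID of her6 (ENSDARG00000006514) had means of 16.11 TPM in er_nor and 12.15 TPM in er_ab. It was not called, with a log2 fold change of -0.38 (adjusted p = 0.0109). The sox11b call held in every alternative tried.

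The other 37 genes were not called, and most lay slightly lower in er_ab. The sign was negative in 31 of 41 genes, a count whose share over all expressed genes is not given here. The median log2 fold change was -0.14 against -0.02 over all expressed genes. Nes was higher in er_ab, with 2.81, 3.10 and 2.75 TPM in er_nor and 3.89, 3.80 and 4.26 TPM in er_ab (0.36 ± 0.06 SE, adjusted p = 1.99e-05). Nhlh2, a factor of young postmitotic neurons, had 14.7, 14.7 and 13.6 TPM and 10.6, 10.8 and 10.8 TPM (-0.38 ± 0.07 SE, adjusted p = 7.22e-06), elavl4 had 74.5, 70.3 and 67.8 TPM and 60.0, 58.0 and 56.0 TPM (-0.28 ± 0.07 SE, adjusted p = 0.00219), and hes6 had 37.7, 34.9 and 32.2 TPM and 26.4, 24.9 and 28.9 TPM (-0.37 ± 0.10 SE, adjusted p = 0.00189). In these 4 genes the 2 groups did not overlap, yet none reached the fold threshold. Sox3 had 22.1, 23.5 and 19.5 TPM in er_nor and 16.8, 16.5 and 18.7 TPM in er_ab, zic1 had 23.6, 21.8 and 22.1 and 18.9, 17.9 and 19.3 TPM, and her4.2 had 12.6, 11.5 and 13.3 and 9.07, 9.31 and 10.9 TPM, all lower in er_ab without overlap and not called. Sox4a was apart in the other direction, with 80.8, 82.1 and 81.5 TPM in er_nor and 91.5, 89.1 and 94.7 TPM in er_ab. The samples of neurog1 (2.64, 3.64 and 3.65 TPM in er_nor, 2.75, 2.61 and 1.88 TPM in er_ab) overlapped, and dlb had 8.57, 9.83 and 8.69 TPM in er_nor and 7.84, 7.76 and 8.47 TPM in er_ab, lower without overlap. Dla, elavl3 and zic2a differed least, with log2 fold changes of 0.00 ± 0.06, 0.00 ± 0.07 and -0.01 ± 0.06 (SE).

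**Figure D5:**
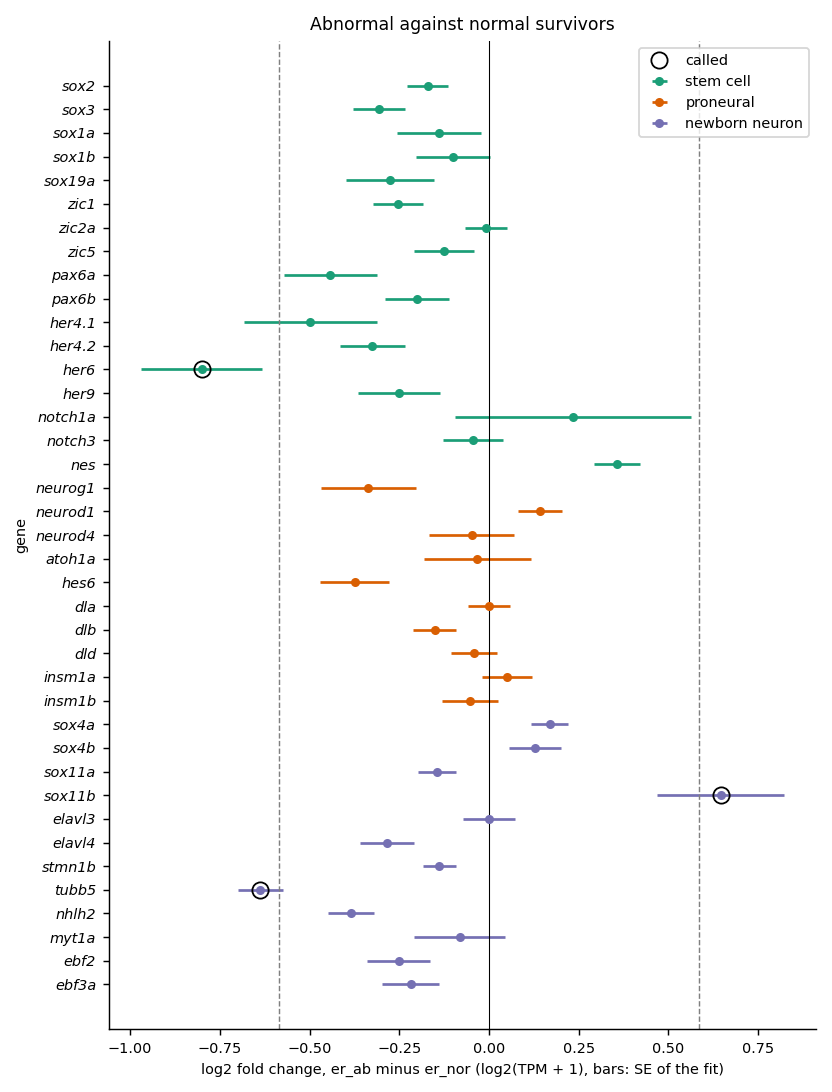
Log2 fold change of er_ab minus er_nor for 39 of the genes (points, bars are the SE of the fit), coloured by class, with the fold threshold of 1.5 as dashed lines and called genes circled. Her6 and tubb5 lie beyond the lower line and sox11b beyond the upper one.

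Marker lists of other cells also differed between the survivors. Of all expressed genes, 4.74% were called lower and 5.58% higher in er_ab than in er_nor. Of 11 photoreceptor markers 9 were lower in er_ab than in er_nor and none higher, and their summed levels were 3338 to 3613 TPM in er_nor and 1387 to 1431 TPM in er_ab. The sums of the 30 mature neuron markers, 7 of them lower and none higher, were 1827 to 1904 and 1420.0 to 1465 TPM, both without overlap between the groups. Of 17 glia markers 6 were lower and 1 higher, yet their summed levels were higher in er_ab, at 2947 to 3117 TPM against 2305 to 2502 TPM. Of 22 proliferation markers 2 were lower, a count near the share of all expressed genes. Their sums were 511 to 558 TPM in er_ab and 701 to 717 TPM in er_nor. The shifts were not limited to neural lists. Epidermis marker sums were 4847 to 5187 TPM in er_ab and 7525 to 7664 TPM in er_nor, and liver and hair cell sums were also lower in er_ab. Single genes of the epidermis and liver lists were called in both directions. Epcam was higher in er_ab, at 453 against 260 TPM (log2 fold change 0.80), while krt5 (-1.13) and krt91 (-0.59) were lower. In the liver list fgb was higher in er_ab, at 624.5 against 298 TPM (1.06), and ttr was lower (-0.68). Endocrine pancreas sums (290.8 to 307.5 against 213.2 to 245.4 TPM) and muscle sums were higher in er_ab, and lens sums overlapped. In the endocrine list only gcga was called, with 92.0 ± 7.27 TPM in er_ab and 23.8 ± 2.57 TPM in er_nor. Of other immature neuron genes, tubb2 went from 27.4 ± 1.86 to 11.6 ± 0.754 TPM (log2 fold change -1.18 ± 0.06 SE, adjusted p = 4.03e-18). Other progenitor genes were called in both directions. The radial glia lipid carrier fabp7a went from 782 ± 20.4 to 378 ± 45.7 TPM (log2 fold change -1.05 ± 0.07 SE, adjusted p = 2.12e-15). Emx3 went the other way, from 2.05 ± 0.469 to 5.27 ± 0.276 TPM (log2 fold change 1.05 ± 0.11 SE, adjusted p = 6.82e-10). Their part in the results for the 41 genes was not tested.

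Survivors were also set against the oldest untreated larvae, ctrl_132 hpf, although they were 144 hpf old, so age and exposure cannot be told apart here. This comparison was added after the values were seen. In er_nor 2 of 41 genes were lower and none higher, where 2.97% and 10.4% of all expressed genes were called, and in er_ab 9 were lower and none higher, where 8.32% and 16.4% were. Both share the ctrl_132 hpf samples. The median log2 fold change of the 41 genes was -0.25 in er_nor, against 0.09 over all expressed genes. In er_ab it was -0.41 against 0.065. With median of ratios scaling the medians of the 41 genes were -0.35 and -0.49. By the limma adjusted p alone, 23 genes were lower and 0 higher in er_nor, and 35 lower and 1 higher in er_ab. The share of all expressed genes at that threshold is not given here. Neurod1 was lower in each, with 76.2, 74.6 and 72.4 TPM at ctrl_132 hpf, 39.3, 34.5 and 34.8 TPM in er_nor and 41.1, 38.7 and 40.2 TPM in er_ab. Its log2 fold changes were -1.02 ± 0.06 (SE, adjusted p = 5.12e-17) and -0.88 ± 0.06 (SE, adjusted p = 1.32e-15), and the 3 groups of samples placed ctrl_132 hpf above both survivor groups. Insm1a was the other gene in er_nor (-0.60 ± 0.07 SE, adjusted p = 3.34e-09), and its call was lost without ctrl_132hpf replicate 1 (-0.53), er_nor replicate 1 (-0.57) or er_nor replicate 2 (-0.58). In er_ab the genes called lower included pax6a, pax6b, her4.1, her4.2, neurog1, neurod1, hes6 and tubb5, with log2 fold changes from -0.62 (pax6b) to -0.94 (her4.1). The pax6b call was lost without ctrl_132hpf replicate 1 (-0.58) and the neurog1 call without er_ab replicate 3 (-0.58).

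For 9 of the 41 symbols the table holds more than 1 gene ID, and the ID with the highest mean was used. The IDs did not always move together. For her6 the ID used (ENSDARG00000111099) had means of 17.9 TPM at ctrl_96 hpf and 7.77 TPM at lc_24 h, and the other (ENSDARG00000006514) had 18.3 and 8.88 TPM and was called lower as well. For sox19a the second ID (ENSDARG00000110497) was called lower at lc_24 h, with a log2 fold change of -0.90 from 20.0 to 10.3 TPM, while the ID used was not. For her9 the second ID (ENSDARG00000115775) had control means of 12.1 TPM at ctrl_96 hpf, 4.06 TPM at ctrl_102 hpf and 8.85 TPM at ctrl_132 hpf. It was called lower at ctrl_102 hpf against ctrl_96 hpf (log2 fold change -1.83) and at lc_24 h (-2.35). For ebf3a the second ID (ENSDARG00000099849) had 12.0 TPM at ctrl_96 hpf and 13.5 TPM at lc_24 h and was not called. Against lc_12 h this ID was called lower at re_1 h (log2 fold change -0.64) and at re_2 h (-0.88). For neurod4 the second ID (ENSDARG00000117149) was called higher in er_ab than in er_nor, with a log2 fold change of 0.67 from 1.56 to 3.32 TPM, while the ID used had means of 21.7 and 20.9 TPM. Both survivor groups were far below lc_24 h for this second ID, which had 17.4 TPM there. The log2 fold changes against lc_24 h were -2.838 in er_nor and -2.165 in er_ab.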

How the data were processed

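RNA-seq libraries of 54 whole-larva samples, 3 in each of 18 groups, were used. The authors quantified reads with Salmon 0.13.1 against Ensembl zebrafish transcripts, summarised them per gene with tximport and deposited TPM values, in which each sample sums to between 998493 and 999530. TPM carries no read counts, so the depth per gene is unknown, and a rise of abundant transcripts lowers the share of all others. Genes with at least 1 TPM in every sample of at least 1 group were kept. A single linear model over all groups was fitted with limma 3.58.1 in R 4.3.3 to log2(TPM + 1), p-values were adjusted by Benjamini-Hochberg over all kept genes, and a call needed a fold of 1.5 and an adjusted p of 0.05. The procedure was tested on simulated data. The pseudocount, filter, scaling, fit, gene ID and each library were varied. The 41 genes and the lists of related genes were chosen with earlier results of these data known. The rule for giving values was up to 5 genes per class with the smallest adjusted p in each of 4 comparisons, and for other lists up to 3 called genes. Values in every sample were also given for further genes outside this rule, among them notch1a and sox4b, which were not called at lc_24 h. Promoter and protein sequences were not analysed here. Of the 41 genes, 39 are described by name, and the others enter the counts but are not reported here.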

Additional observations from a re-analysis of the deposited data

How the results depend on the processing

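Over 28 comparisons 241 calls were made, and none of them changed direction under any alternative. All 241 were kept with a pseudocount of 0.1, without a filter and with only the 2 groups compared in the fit, and 225 of 225 were kept with a filter at 5 TPM, which 39 of the genes passed. Scaling by the median of ratios kept 195 of 241, changed the balance of the calls in er_ab against lc_24 h from 11 higher and 5 lower to 7 higher and 12 lower, and turned the sign of the median log2 fold change of the 41 genes in that comparison (0.16 to -0.09) and at re_1 h against ctrl_96 hpf (-0.02 to 0.04). Summing TPM over gene IDs kept 232 of 241. Leaving out 1 library at a time kept 1391 of 1446. With a pseudocount of 0.1 the count of genes called was 2 at ctrl_132 hpf against ctrl_96 hpf, 2 at lc_2 h against ctrl_96 hpf, 2 at lc_2 h against ctrl_98 hpf and 6 at re_2 h against re_1 h. With 1 library left out, the counts ranged from 1 to 2 at ctrl_132 hpf against ctrl_96 hpf, from 1 to 2 at lc_2 h against ctrl_96 hpf, from 0 to 2 at lc_2 h against ctrl_98 hpf, from 0 to 1 at re_24 h against ctrl_132 hpf and from 1 to 2 for er_nor against ctrl_132 hpf. The causes were not tested. A replicate block kept all 241 calls, but samples with the same number deviated together in 0 of 28 comparisons (correlations from -0.131 to 0.084), so they share only a number and no pairing was used. Calls near the fold threshold are the least firm, and TPM gives no depth with which to judge low genes such as atoh1a.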
